A study of Mus musculus with 16 samples.

Results

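7 genes were followed that mark scavenging sinusoidal endothelium, namely the stabilins Stab1 and Stab2, the mannose receptor Mrc1, the hyaluronan receptor Lyve1, the inhibitory Fc receptor Fcgr2b, the secreted nuclease Dnase1l3 and the HDL receptor Scarb1. They were chosen by symbol, and by Ensembl identifier where a table held no symbols, and all 7 were present among the 38926, 38922 and 21603 genes of 3 separate expression tables. The tables hold RNA-seq values of bone endothelial cells sorted from C57BL/6 mice, in 16 libraries. Wildtype endothelial cells of the metaphysis (mpEC, 3 libraries) and of the diaphyseal marrow (bmEC, 3 libraries) were sorted from 3-week-old bones that carry the Cdh5-mTnG reporter. In the Hippo pathway comparisons, 3 libraries labelled Yap1/Taz ECKO (Yap1flx/flx, Wwtr1flx/flx, Cdh5CreERT2 positive, postnatal day 21) stood against 3 libraries of Cre-negative mice with the same floxed alleles, and 2 libraries labelled Lats2 cKO (Lats2flx/flx, Cdh5CreERT2 positive) against 2 of Cre-negative Lats2flx/flx mice. Cdh5CreERT2 drives a tamoxifen-inducible recombinase from the endothelial VE-cadherin promoter, both arms of each pair carry the loxP alleles, and mice were grouped irrespective of sex. The region cells were gated on the mTomato and H2B-GFP of the reporter and the others on CD31 and Emcn, gates that should remove blood cells. The methods name biological replicates but the labels do not tie a library to an animal, so p-values measure the spread between these libraries.

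Sinusoids are wide, thin-walled venous capillaries of liver, spleen and bone marrow whose endothelium clears macromolecules from blood. Stab2 binds hyaluronan and other ligands and delivers them to lysosomes through clathrin-coated vesicles, its relative Stab1 takes up modified proteins such as acetylated LDL, and Mrc1 captures mannose-ended glycoproteins and collagen fragments. Fcgr2b takes up small immune complexes, Dnase1l3 degrades chromatin released from dying cells, Scarb1 transfers lipid from HDL, and Lyve1 binds hyaluronan on lymphatic and on some sinusoidal endothelium.

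In GRCm38 (GENCODE M21) the 7 genes are Stab1 (ENSMUSG00000042286, chr14:31139013-31168641), Stab2 (ENSMUSG00000035459, chr10:86841198-87008025), Mrc1 (ENSMUSG00000026712, chr2:14229392-14332057), Lyve1 (ENSMUSG00000030787, chr7:110850607-110863239), Fcgr2b (ENSMUSG00000026656, chr1:170958617-170976547), Dnase1l3 (ENSMUSG00000025279, chr14:7964533-7994573) and Scarb1 (ENSMUSG00000037936, chr5:125277087-125341094). Mrc1 lies on the plus strand and the others on the minus strand. RefSeq promoter entries (GRCm38.p6, 250 bases before to 50 after the start) were found for 4 of the 7 genes, namely Stab1, Stab2, Mrc1 and Fcgr2b, and were not matched for Lyve1, Dnase1l3 and Scarb1. Stretches upstream of the first annotated exon are shown for the stabilins and Mrc1, because Stab2 and Mrc1 moved together in these libraries while Stab1 moved with them in the Lats2 comparison and not between bone regions. Each stretch is given 5′ to 3′ on the gene's strand.
Stab1 promoter, chr14:31168642-31168891: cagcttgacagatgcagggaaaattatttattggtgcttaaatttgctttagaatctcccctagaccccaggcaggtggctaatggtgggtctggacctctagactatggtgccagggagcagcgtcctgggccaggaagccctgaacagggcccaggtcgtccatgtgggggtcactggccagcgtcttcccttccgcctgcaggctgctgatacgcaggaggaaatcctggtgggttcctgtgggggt
Stab2 promoter, chr10:87008026-87008192: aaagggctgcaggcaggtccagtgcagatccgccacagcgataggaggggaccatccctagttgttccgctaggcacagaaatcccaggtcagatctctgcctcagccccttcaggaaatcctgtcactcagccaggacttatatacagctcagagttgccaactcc
Mrc1 promoter, chr2:14229164-14229391: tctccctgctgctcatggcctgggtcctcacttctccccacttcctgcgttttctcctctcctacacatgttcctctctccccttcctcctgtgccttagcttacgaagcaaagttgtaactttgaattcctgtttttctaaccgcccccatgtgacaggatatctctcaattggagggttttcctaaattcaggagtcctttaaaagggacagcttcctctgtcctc
The Stab1 stretch is 250 bases long, the Stab2 stretch 167 and the Mrc1 stretch 228. No Fcgr2b stretch is shown, because 187 of the 250 bases before its RefSeq start overlap exons of the gene in GENCODE release M21. A set of 6 motifs were searched on both strands of the 300-base windows, GGAATG for TEAD factors, ACGTG and GCGTG for the hypoxia response element core, AGATAA and TGATAA for GATA factors and CCGGAA for ETS factors. None of the 4 windows held any of them, so no letters are in capitals. Among 27025 promoters of the same length, GGAATG was in 14.6%, ACGTG in 19.7%, GCGTG in 32.5%, AGATAA in 11.4%, TGATAA in 9.3% and CCGGAA in 15.2%.

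The genes targeted in the mutants were read first, as a check of the labels. Yap1 was 1.07, 1.62 and 0.995 FPKM (fragments scaled to transcript length and library depth) in the Yap1/Taz control libraries 1 to 3 and 1.43, 1.03 and 0.989 in the libraries labelled Yap1/Taz ECKO, so the groups overlapped. Wwtr1, which encodes Taz, was 10.01, 9.88 and 10.3 FPKM in control and 15.3, 19.6 and 19.5 in the libraries labelled Yap1/Taz ECKO, a log2 fold change of 0.78 with an adjusted p-value of 0.0272, a direction opposite to that of the label. That adjusted p-value was 0.0679 without a filter on low genes, 0.057 without the mean-variance trend, 0.0752 and 0.0715 without control library 2 or 3 and 0.180 and 0.144 without mutant library 2 or 3. Lats2 was 23.4 and 24.0 FPKM in control and 19.2 in both libraries labelled Lats2 cKO, with an adjusted p-value of 0.125. A value per gene counts reads of every exon, also those outside a deleted part, and 42.4% of Lats2 exon bases overlap Gm49361 on the same strand. Directions below are therefore those between libraries as labelled. The depth estimated from the values was 11.12 to 14.7 M reads in the region libraries, 4.88 to 7.15 M in the Yap1/Taz libraries and 4.73 to 7.07 M in the Lats2 libraries.

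The 9 endothelial markers (Pecam1, Cdh5, Kdr, Tek, Tie1, Erg, Esam, Egfl7 and Emcn) were detected in every library. Their summed level ranged from 1158 to 1480 FPKM in mpEC, 1316 to 1349 in bmEC, 2068 to 2240 in Lats2 control, 2161 to 2169 in Lats2 cKO, 541 to 551 in Yap1/Taz control and 630 to 733 in the libraries labelled Yap1/Taz ECKO. Single markers differed at an adjusted p-value under 0.05 (limma), 3 higher and 3 lower in bmEC, and 1 higher and 2 lower in Lats2 cKO. None did in the libraries labelled Yap1/Taz ECKO. Blood cell transcripts were also present in every library. Summed over 6 erythroid markers such as the globins, their level ranged from 28230 to 60370 FPKM in the region libraries, 4394 to 6557 in the Yap1/Taz libraries, 2394 to 3641 in Lats2 control and 241 to 1389 in Lats2 cKO. Tables were normalised separately, so levels are set side by side across them only as a description.

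Mrc1 led the 7 genes in most libraries, and in Lats2 cKO the order was turned. It was the highest in 13 of the 16 libraries, Stab2 in 1 (a Lats2 control) and Scarb1 in both Lats2 cKO libraries. Dnase1l3 ranked second in all 3 bmEC libraries and 5th or lower in all Yap1/Taz and Lats2 libraries. Lyve1 was the lowest in 15 libraries, the exception being Lats2 cKO library 1, where Dnase1l3 and Fcgr2b lay below it. The 7 genes summed to 189 to 252 FPKM in mpEC and 690 to 932 in bmEC, and to 437 and 519 in Lats2 control against 198 and 166 in Lats2 cKO. The plot of levels by library shows Stab2, Mrc1, Fcgr2b and Dnase1l3 apart in both of these pairs.

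**Figure D1:**
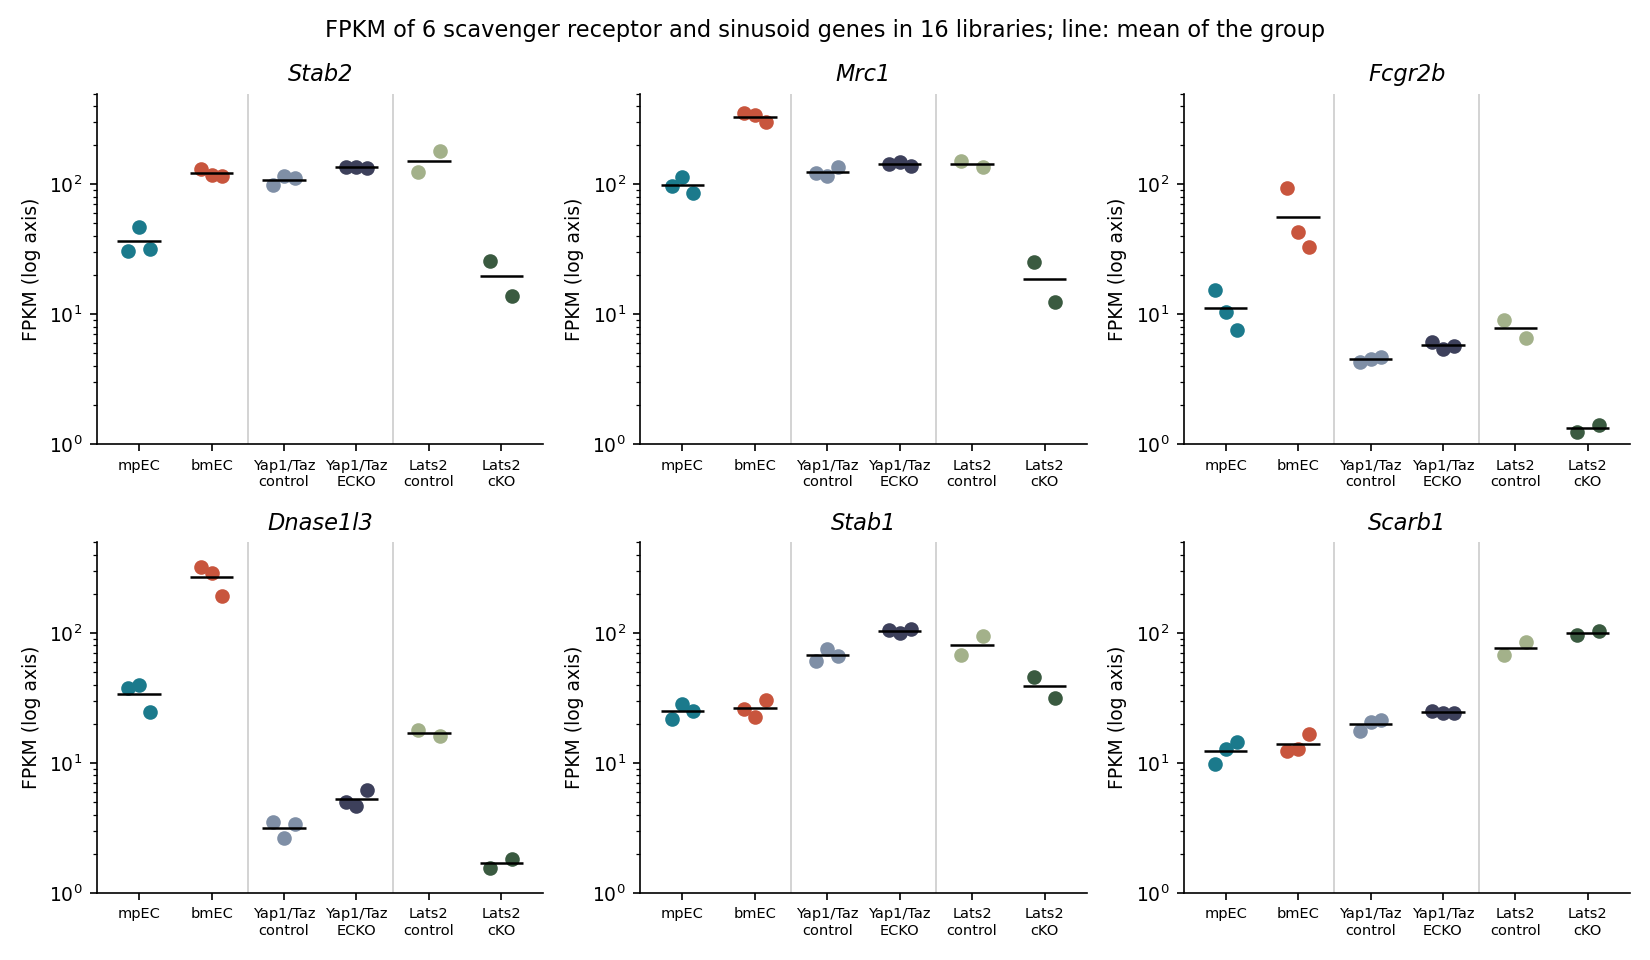
FPKM (log axis) of 6 genes in each of the 16 libraries, by group, with 1 point per library and a line at the group mean, and grey lines between tables that were normalised separately. Stab2, Mrc1, Fcgr2b and Dnase1l3 lie higher in bmEC than mpEC and lower in Lats2 cKO than control without overlap, Stab1 overlaps between mpEC and bmEC, and Scarb1 is lowest in mpEC at 9.71 FPKM and highest in Lats2 cKO at 104 FPKM.

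The comparison of bmECs with mpECs asks how the scavenging genes are distributed between the marrow sinusoids and the metaphyseal vessels. Stab2, Mrc1, Fcgr2b and Dnase1l3 were higher in bmECs, by 3.33, 3.35, 5.07 and 7.85 times in mean FPKM, while Stab1 and Scarb1 did not pass the test and Lyve1 was under the limit for testing. 4 of the 6 tested genes were called higher at an adjusted p-value under 0.05 (limma), where 13.0% of the 11422 genes tested were called higher and 10.5% lower, 23.5% in all. The median log2 fold change of the 6 was 1.74, against -0.00068 over all genes tested. The ranges of these 4 genes also did not overlap, as in 22.1% of all genes in that direction and 41.3% in either. The same 4 were called under each of the 16 alternative settings.

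Stab2, the hyaluronan clearance receptor, was 130, 117 and 117 FPKM in bmEC libraries 1 to 3 and 30.5, 46.9 and 31.9 in mpEC libraries 1 to 3. The lowest bmEC library was well over the highest mpEC library, and the log2 fold change was 1.73 ± 0.157 (SE, n = 3 and 3) with an adjusted p-value of 0.000229. Stab1 was 26.0, 22.4 and 30.2 FPKM in bmEC and 21.6, 28.3 and 25.1 in mpEC. The ranges of Stab1 lay over each other, its log2 fold change of 0.06 had a 95% interval from -0.25 to 0.38, and the adjusted p-value was 0.779. Between the regions the ratio of Stab2 to Stab1 within a library, which needs no scaling between libraries, was 1.41, 1.66 and 1.27 in mpEC and 5.01, 5.24 and 3.88 in bmEC. These do not overlap, and 3 libraries against 3 cannot give an exact permutation p-value below 0.1.

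Mrc1, the endocytic mannose receptor, was 351, 341 and 300 FPKM in bmEC and 97.1, 114 and 85.1 in mpEC, the highest level among the 7 genes in each of these libraries. Its log2 fold change was 1.74 ± 0.121 (SE, n = 3 and 3), with an adjusted p-value of 7.57e-05. Macrophages also express Mrc1, and their 13 markers summed to 1063 to 1939 FPKM in mpEC and 736 to 998 in bmEC, with at most 2 of the 13 at 0 in a library. Most of that sum was Lyz2, which neutrophils share. Of 9 macrophage markers tested, 1 was called, Lyz2, lower in bmEC. Adgre1 was 2.49 to 5.95 FPKM and Csf1r 0.952 to 3.23 over both regions, and Cd163 was 0.229 to 0.580 in mpEC and 0.974 to 1.39 in bmEC. The part of macrophages in the Mrc1 result was not tested.

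Fcgr2b, the inhibitory receptor for immune complexes, was 93.3, 42.9 and 32.8 FPKM in bmEC and 15.3, 10.4 and 7.62 in mpEC. The bmEC libraries varied widely, with a mean of 56.4 ± 32.4 (SD, n = 3), and the groups did not overlap. The log2 fold change was 2.15 ± 0.376 (SE), with an adjusted p-value of 0.0051. B cells also express Fcgr2b, and 7 B cell markers summed to 189 to 367 FPKM in mpEC and 176 to 212 in bmEC, with none at 0. Of those 7 markers 1 was called, Ebf1, lower in bmEC, and their part in the Fcgr2b result was not tested. The related activating receptor Fcgr3, whose extracellular exons closely resemble those of Fcgr2b, was 38.5 to 72.2 FPKM in mpEC and 27.1 to 35.1 in bmEC, and how reads that map to both were counted is not given in the sources used here.

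Dnase1l3, the secreted chromatin nuclease, had the largest log2 fold change of the 6 tested genes between the regions. It was 319, 290 and 193 FPKM in bmEC and 37.6, 39.9 and 24.6 in mpEC, a log2 fold change of 2.93 ± 0.229 (SE, n = 3 and 3) with an adjusted p-value of 0.000123. Dendritic cells and macrophages also express Dnase1l3. The 8 dendritic cell markers summed to 14.5 to 16.02 FPKM in mpEC and 15.9 to 18.5 in bmEC, with none at 0. Flt3 and Itgax were at most 0.518 FPKM, so most of the sum came from the other markers. Of 5 dendritic cell markers tested, 1 was called, higher in bmEC, and the median log2 fold change of the 5 was 0.23. Their part in the Dnase1l3 result was not tested. Scarb1, the HDL receptor, was 12.3, 12.8 and 16.8 FPKM in bmEC and 9.71, 12.7 and 14.6 in mpEC, overlapping, with a log2 fold change of 0.17 (95% interval -0.21 to 0.56) and an adjusted p-value of 0.494.

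**Figure D2:**
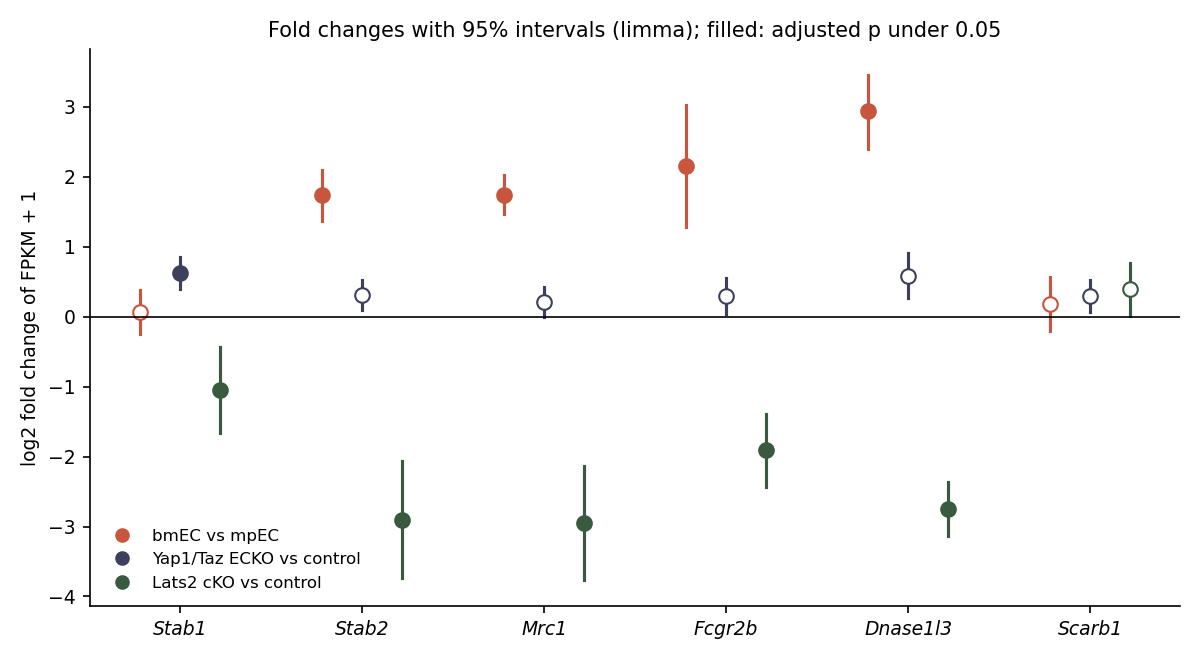
Log2 fold change of FPKM + 1 for 6 genes in 3 comparisons, with 95% intervals from limma as vertical lines and filled points at an adjusted p-value under 0.05. Stab2, Mrc1, Fcgr2b and Dnase1l3 are between 1.73 and 2.93 in bmEC against mpEC and between -1.91 and -2.95 in Lats2 cKO against control, and Stab1 is filled in both mutant comparisons only.

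The Lats2 comparison asks what the loss of a Hippo kinase in endothelial cells does to the same genes. Stab2, Mrc1, Fcgr2b, Dnase1l3 and Stab1 were lower in the libraries labelled Lats2 cKO, with control means 7.62, 7.67, 5.91, 10.1 and 2.08 times those of Lats2 cKO, and Scarb1 did not pass the test. 5 of the 6 tested genes were called lower, where 9.98% of 12451 genes tested were called lower and 11.8% higher, 21.8% in all. The median log2 fold change of the 6 was -2.33, against -0.0031 over all genes tested. The 4 genes called higher in bmEC were all called lower in Lats2 cKO, and these comparisons share no library. Among all genes called higher in bmEC, 495 of the 1401 also tested for Lats2 (35.3%) were called lower in Lats2 cKO. Without Lats2 control library 1 or without library 2, which leaves 1 control assumed to vary as the mutants do, no gene at all was called by limma, with 2724 and 2878 of all genes and 6 and 5 of the members at an unadjusted p-value under 0.05. With all 4 libraries, limma-voom called the same 5 members. Endothelial cells that carry less of an RNA and fewer cells that carry it cannot be told apart in these bulk libraries.

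Stab2 was 123 and 179 FPKM in Lats2 control and 25.8 and 13.9 in Lats2 cKO, a log2 fold change of -2.90 ± 0.328 (SE, n = 2 and 2) with an adjusted p-value of 0.0102. Mrc1 was 151 and 137 FPKM in control and 25.2 and 12.4 in Lats2 cKO, a log2 fold change of -2.95 ± 0.321 (SE) with an adjusted p-value of 0.00988. For both genes the lower value came from Lats2 cKO library 2, and even the higher was under the lowest control. Among markers of resident macrophages, Vsig4 was at 0 in all 4 libraries, Cd163 was at most 0.268 FPKM, Adgre1 at 0.248 to 1.55 and Csf1r at 3.08 to 9.49. The 13 macrophage markers summed to 415 to 514.5 FPKM in control and 72.2 to 295.5 in Lats2 cKO, with up to 3 of them at 0 in a library and Lyz2 again the largest. The median log2 fold change of the 7 tested was 0.35. Their part in the Mrc1 result, and in that of Stab1 below, was not tested.

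Dnase1l3 was 17.9 and 16.2 FPKM in Lats2 control and 1.54 and 1.83 in Lats2 cKO, a log2 fold change of -2.75 ± 0.151 (SE, n = 2 and 2) with an adjusted p-value of 0.00574. Fcgr2b was 9.09 and 6.55 FPKM in control and 1.24 and 1.41 in Lats2 cKO, a log2 fold change of -1.91 ± 0.207 (SE) with an adjusted p-value of 0.00988. On these low levels the estimated reads were 226 to 262 for Fcgr2b in control and 27 to 41 in Lats2 cKO, and 460 to 497 and 30 to 47 for Dnase1l3. Fcgr3 was 7.84 to 9.61 FPKM in control and 1.16 to 5.65 in Lats2 cKO, with an adjusted p-value of 0.125 (limma). The part of reads that map to both Fcgr2b and Fcgr3 was not tested. B cell transcripts were lower too, with 7 markers summing to 97.6 to 117 FPKM in control and 27.8 to 36.3 in Lats2 cKO, none at 0, 5 of 6 tested called lower and a median log2 fold change of -1.87. Their part in the Fcgr2b result was not tested. Neutrophil markers were lower as well, 5 of 7 tested, summing to 1789 to 2678 FPKM in control and 665 to 792 in Lats2 cKO. The 6 erythroid markers, at 3641 and 2394 FPKM in control and 1389 and 241 in Lats2 cKO in sum, had a median log2 fold change of -2.54, and the part of these blood cell transcripts in the members' values was not tested. The 8 dendritic cell markers summed to 27.7 to 31.7 FPKM in control and 12.5 to 21.0 in Lats2 cKO, with up to 2 at 0. Flt3 was at most 0.285 FPKM, so most of the sum came from the other markers. Of 3 tested, 1 was called lower, and the median log2 fold change of the 3 was 0.13. The part of dendritic cells in the Dnase1l3 result was not tested.

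Stab1 was 67.2 and 94.3 FPKM in Lats2 control and 45.8 and 31.7 in Lats2 cKO, which do not overlap. Its log2 fold change of -1.04 ± 0.244 (SE, n = 2 and 2) was the smallest of the 5 genes called, with an adjusted p-value of 0.0383, and the call was lost without a filter on low genes (0.0797), without Lats2 cKO library 2 (0.134) and without the mean-variance trend (0.0585). Scarb1 was 68.1 and 85.4 FPKM in control and 96.5 and 104 in Lats2 cKO, which do not overlap either. Of all genes tested 68.2% had groups that did not overlap in this comparison of 2 libraries with 2, 34.2% lower and 34.0% higher in Lats2 cKO. Its log2 fold change of 0.39 had a 95% interval from 0.01 to 0.77, and the adjusted p-value was 0.123. Scarb1 was thereby the only tested gene of the 6 without a lower level in Lats2 cKO.

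The third comparison set the libraries labelled Yap1/Taz ECKO against their controls. Stab1 was called higher, by 1.54 times in mean FPKM, and Stab2, Mrc1, Fcgr2b, Dnase1l3 and Scarb1 did not pass the test. 1 of the 6 tested genes was called, where 0.883% of 11320 genes tested were called higher and 0.424% lower, 1.31% in all. All 6 had positive log2 fold changes with a median of 0.31, but relative to 6 endothelial genes (Cdh5, Pecam1, Tie1, Erg, Esam and Egfl7) Mrc1, Fcgr2b, Scarb1 and Stab2 turned to -0.11, -0.019, -0.014 and -0.0005. The 6 genes also had groups that did not overlap, which was true of 12.3% of all genes tested in that direction.

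Stab1 was 60.5, 75.5 and 66.6 FPKM in Yap1/Taz control libraries 1 to 3 and 105, 99.9 and 107 in the libraries labelled Yap1/Taz ECKO. Its log2 fold change was 0.62 ± 0.104 (SE, n = 3 and 3), with an adjusted p-value of 0.0347. The adjusted p-value was 0.0679 without a filter on low genes, 0.0759 without the trend and 0.0601 relative to endothelial genes, where the log2 fold change was 0.30. It was also over the threshold without control library 2 (0.0569), control library 3 (0.0876), mutant library 2 (0.184) or mutant library 3 (0.160). Stab2 was 98.2, 115 and 113 FPKM in control and 137, 135 and 133 in the libraries labelled Yap1/Taz ECKO, with a log2 fold change of 0.31 and an adjusted p-value of 0.130.

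Mrc1 was 122, 116 and 135 FPKM in Yap1/Taz control and 143, 148 and 139 in the libraries labelled Yap1/Taz ECKO, with an adjusted p-value of 0.293. Macrophage transcripts were present in both groups, with C1qa at 360 to 524 FPKM in control and 380 to 412 in the libraries labelled Yap1/Taz ECKO and Adgre1 at 65.8 to 140 FPKM over both groups. The 13 macrophage markers summed to 1610 to 2312 FPKM in control and 1491 to 1715 in the libraries labelled Yap1/Taz ECKO, with at most 1 at 0. Their part in the levels of Mrc1 and Stab1 was not tested. The remaining 3 genes were lower in level and did not pass the test. Dnase1l3 was 3.52, 2.65 and 3.36 FPKM in control and 5.03, 4.62 and 6.15 in the libraries labelled Yap1/Taz ECKO (log2 fold change 0.58, adjusted p-value 0.0775), with the 8 dendritic cell markers at 67.4 to 80.9 and 77.2 to 81.1 FPKM in sum. Fcgr2b ranged from 4.27 to 4.70 FPKM in control and 5.38 to 6.18 in the libraries labelled Yap1/Taz ECKO (adjusted p-value 0.215), with the 7 B cell markers at 283 to 330 and 235 to 239 FPKM in sum. Fcgr3 stood at 43.1 to 60.9 FPKM in control and 41.6 to 45.8 in the libraries labelled Yap1/Taz ECKO. The part of reads that map to both Fc receptors was not tested. Scarb1 ranged from 17.4 to 21.2 FPKM in control and 24.2 to 25.0 in the libraries labelled Yap1/Taz ECKO (adjusted p-value 0.164).

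**Figure D3:**
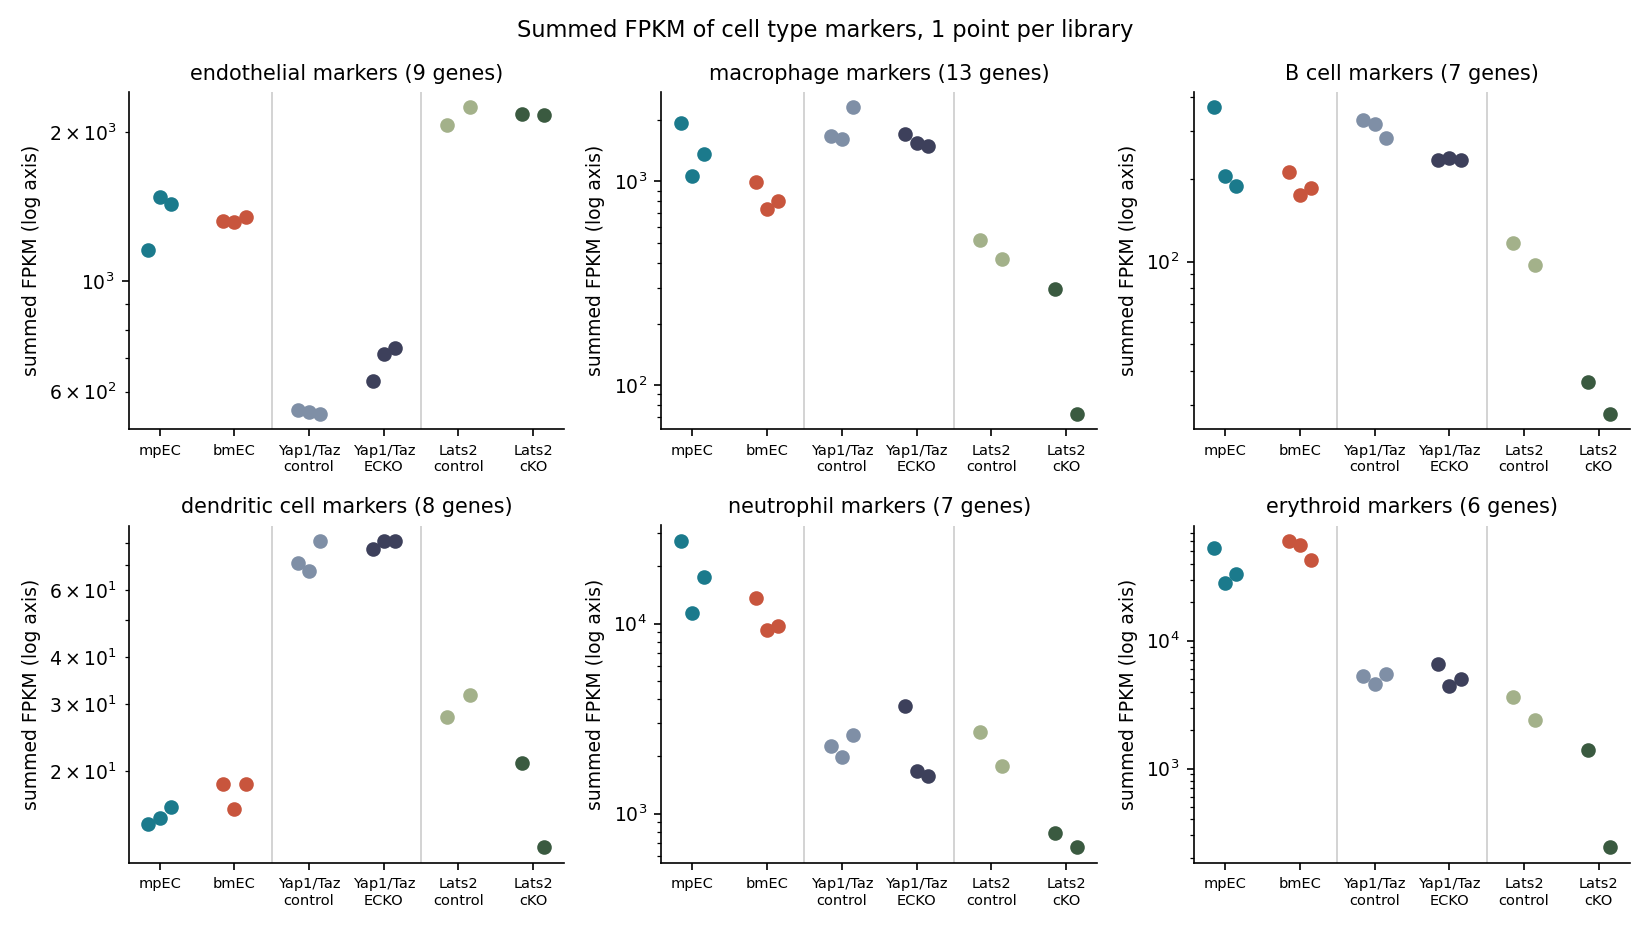
Summed FPKM (log axis) of 6 sets of cell type markers, with 1 point per library and grey lines between tables that were normalised separately. The sums of macrophage, B cell, dendritic cell, neutrophil and erythroid markers are all lower in both Lats2 cKO libraries than in control. The median log2 fold change there was 0.35 over the 7 macrophage markers tested and 0.13 over the 3 dendritic cell markers tested. Endothelial markers are higher in the 3 libraries labelled Yap1/Taz ECKO (630 to 733 FPKM) than in their controls (541 to 551). The macrophage sum, mostly Lyz2, is lower in bmEC (736 to 998) than in mpEC (1063 to 1939), with 1 of 9 markers tested called lower.

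Lyve1 was close to undetected in bone endothelium. Its values were 0.466, 0.0384 and 0.395 FPKM in mpEC and 0, 0.487 and 0.0978 in bmEC, which are 15, 1 and 10 reads and 0, 12 and 3 reads when the values are turned back into whole reads. Yap1/Taz control held 12, 2 and 0 reads and the libraries labelled Yap1/Taz ECKO 0, 2 and 1. The Lats2 control libraries held 0 and 1 read, at 0 and 0.0645 FPKM, and the Lats2 cKO libraries 18 and 15, at 1.83 and 1.16 FPKM. Per estimated read the Lats2 cKO libraries held 37.3 times as much as control, with an exact 95% counting interval from 6.25 to 1519, which covers counting error only. A mean under 1 FPKM kept Lyve1 out of the test in all 3 comparisons, and without that filter the Lats2 difference had an adjusted p-value of 0.0427. The lymphatic markers Prox1, Pdpn, Reln and Ccl21a, of which the Yap1/Taz table held 3, together did not exceed 4.76 FPKM in any library, with up to 2 at 0. They summed to 0.391 and 0.935 FPKM in Lats2 control libraries 1 and 2 and 4.27 and 0.279 in Lats2 cKO libraries 1 and 2, and their part in the Lyve1 result was not tested.

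Within a library, the balance of the stabilins followed the groups. Stab2 exceeded Stab1 by 1.84 and 1.90 times in the Lats2 controls and was 0.564 and 0.438 of Stab1 in Lats2 cKO. In the Yap1/Taz libraries the ratio was 1.62, 1.53 and 1.69 in control and 1.31, 1.35 and 1.246 in the libraries labelled Yap1/Taz ECKO. Mrc1 and Stab2 kept a closer ratio, at 2.43 to 3.18 in mpEC and 2.57 to 2.91 in bmEC, and at 0.764 to 1.23 in Lats2 control and 0.891 to 0.976 in Lats2 cKO. In the Yap1/Taz table it was 1.001 to 1.239 in control and 1.04 to 1.09 in the libraries labelled Yap1/Taz ECKO. Scarb1 was 0.449 to 0.580 of Stab1 in mpEC and 0.475 to 0.574 in bmEC, and it was 1.01 and 0.905 of Stab1 in Lats2 control and 2.11 and 3.29 times Stab1 in Lats2 cKO.

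**Figure D4:**
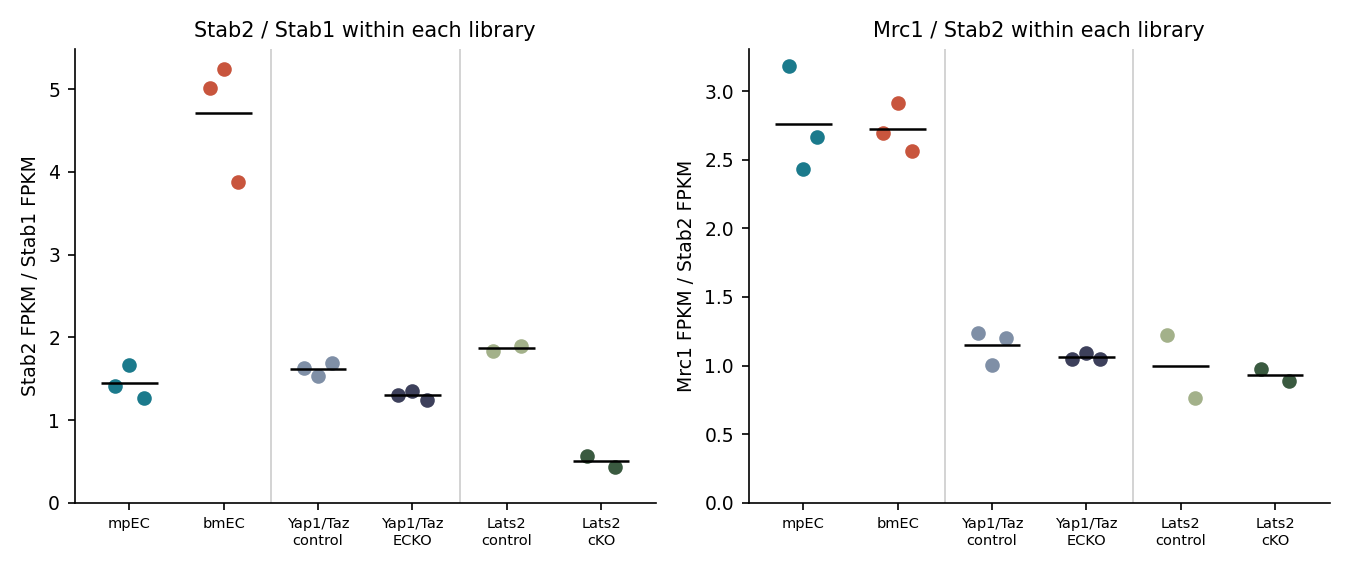
Ratios of FPKM between 2 genes within each library, Stab2 to Stab1 on the left and Mrc1 to Stab2 on the right, with 1 point per library, a line at the group mean and grey lines between tables. The Stab2 to Stab1 ratio is 3.88 to 5.24 in bmEC and 1.27 to 1.66 in mpEC, and falls below 1 in Lats2 cKO alone, while the Mrc1 to Stab2 ratio overlaps between the groups of each table.

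Over the 16 libraries, each taken relative to the mean of its own table on the log2(FPKM + 1) scale, Mrc1 was among the 3 genes most like Stab2 of 4948 with a mean of at least 5 FPKM in every table. The 16 points share tables, groups and depth, so these correlations are descriptions, without a test. Stab2 was most like Abcc9 (Pearson r 0.990), an ATP-binding cassette subunit of potassium channels, Mrc1 (0.985) and Stom (0.983). Mrc1 was most like Stom (0.993), which encodes the membrane protein stomatin, the lactate carrier Slc16a1 (0.990) and the histone deacetylase Hdac3 (0.989). Among the genes most like Dnase1l3 were Sult1a1 (0.984) and Cyp4b1 (0.983), which encode a sulfotransferase and a cytochrome P450, and among those most like Fcgr2b were Selp (0.949) and Smap2 (0.942). Stab1 had other neighbours, the natriuretic peptide receptor Npr1 (0.952), Sema6a (0.930) and Ushbp1 (0.907). For Scarb1 the closest were Thap4 (0.870), Arhgef7 (0.865) and Vat1 (0.863), and for the few reads of Lyve1 they were Rpp30 (0.889), Chchd1 (0.887) and Pdzd11 (0.870). Among the members, r was 0.96 between Fcgr2b and Dnase1l3, 0.92 between Stab2 and Dnase1l3, 0.73 between the stabilins and -0.14 between Stab2 and Scarb1.

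Genes around these receptors were read from 10 lists of related ligands, receptors, vesicle and lysosome genes and transcription factors. Outside the 7 members, 36 of 89 tested genes of the lists were called higher in bmEC and 8 lower, a share of 49.4% beside the 23.5% of all genes, with a median log2 fold change of 0.23. In Lats2 cKO 7 of 93 were called higher and 22 lower, 31.2% beside 21.8%, with a median of -0.21. In the libraries labelled Yap1/Taz ECKO 3 of 102 were called higher (Hyal3, Scarf1 and Cd300lg) and 1 lower (Cd209a), 3.9% beside 1.31%. Hyal3 and Cd209a, both low in level, are named for being in so short a count. By limma 20 of the 102 had an unadjusted p-value under 0.05, beside 2023 of all 11320 genes tested. By limma-voom 6 were called, beside 357 of 11290 genes. Counts of single lists below stand beside 13.0% of all genes called higher and 10.5% lower in bmEC. For Lats2 cKO those shares were 11.8% higher and 9.98% lower, and counts in such short lists are descriptions only.

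Of the other scavenger and endocytic receptors, 7 of 13 tested were higher in bmEC and 1 lower, and in Lats2 cKO 1 of 15 was higher and 6 lower. Axl, a receptor for apoptotic cells bridged by Gas6, was 20.04 ± 4.75 FPKM in mpEC, 85.7 ± 9.08 in bmEC (SD, n = 3 each), 30.5 ± 0.237 in Lats2 control and 6.35 ± 0.850 in Lats2 cKO (SD, n = 2 each). Cd36 and Msr1, class B and class A scavenger receptors, were higher in bmEC by 1.92 and 1.91 on the log2 scale. The chemokine scavenger receptor Cxcl16 was lower in Lats2 cKO by a log2 fold change of -1.08. Scarf1 and Cd300lg were higher in the libraries labelled Yap1/Taz ECKO, with log2 fold changes of 0.61 and 0.59.

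The partners of single members were described in the same way. In the Fc receptor list, the neonatal receptor Fcgrt, which recycles IgG, was 851 ± 54.2 FPKM in mpEC and 1653 ± 154 in bmEC, and 1075 ± 67.4 in Lats2 control and 355 ± 69.4 in Lats2 cKO, while the signalling chain Fcer1g was lower in bmEC (log2 fold change -0.73). With Fcgr2b itself, that list had 2 genes higher and 2 lower of 7 tested in bmEC and 2 lower of 7 in Lats2 cKO. In the HDL list, endothelial lipase Lipg was 25.4 ± 9.83 FPKM in mpEC and 116 ± 5.68 in bmEC, and 33.1 ± 1.198 in Lats2 control and 5.02 ± 1.32 in Lats2 cKO. Apoe was called in the same directions, with log2 fold changes of 1.76 and -2.20. The cholesterol exporter Abca1 was higher in bmEC (0.57) and higher in Lats2 cKO too (0.62). Of that list 4 of 9 were higher in bmEC, and 1 higher and 2 lower of 11 in Lats2 cKO. Besides Stab2, the hyaluronan list held Hmmr and Layn, both hyaluronan binders, which were lower in bmEC (-0.94 and -0.93). Of the 4 protein ligands of the stabilins 3 were tested between the regions, and Tgfbi was the 1 called, higher in bmEC (0.87). In the lists of mannose receptors and of DNases, Mrc1 and Dnase1l3 themselves were the calls made in the region and Lats2 comparisons.

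Downstream of uptake, 9 of 24 clathrin and early endosome genes were higher in bmEC and 1 lower, and 2 were higher and 5 lower in Lats2 cKO. Clathrin heavy chain Cltc and the adaptor subunit Ap2a2 were higher in bmEC, by 0.72 and 0.54 on the log2 scale, and Ehd3, an endosomal recycling ATPase, was 30.7 ± 2.95 FPKM in mpEC and 113 ± 7.65 in bmEC, and 42.7 ± 7.01 in Lats2 control and 18.3 ± 1.32 in Lats2 cKO. The clathrin adaptor Dab2 was lower in Lats2 cKO (-1.34) and the engulfment adaptor Gulp1 higher (1.28). Of the lysosomal genes, 8 of 19 were higher in bmEC and 2 lower, and 3 of 20 were higher and 4 lower in Lats2 cKO. The protease cathepsin L (Ctsl) was 422 ± 76.2 FPKM in mpEC and 2243 ± 76.3 in bmEC, and 1055 ± 139 in Lats2 control and 357 ± 71.8 in Lats2 cKO. Legumain (Lgmn) had log2 fold changes of 1.35 and -1.62, sialidase Neu1 was higher in bmEC (0.87), and cathepsin D (Ctsd) was lower in Lats2 cKO (-1.06).

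Of 10 transcription factors linked to sinusoids, 7 of 9 tested were higher in bmEC, and 4 of 7 were lower in Lats2 cKO. Maf rose from 8.97 ± 1.85 FPKM in mpEC to 24.5 ± 2.03 in bmEC, Tfec from 8.92 ± 0.424 to 18.7 ± 1.37 and Irf8 from 13.3 ± 1.22 to 35.4 ± 0.200 (SD, n = 3 each). Irf8 was lower in Lats2 cKO by a log2 fold change of -1.45 and the venous factor Nr2f2 by -1.23. The part of blood cell transcripts in the values of these factors was not tested. Gata4, which specifies the liver sinusoid, was at 0 in all 16 libraries, and Clec4g and Wnt2, also markers of liver sinusoids, did not exceed 0.701 FPKM. Oit3, the remaining marker of that list, was 6.71 ± 2.38 FPKM in mpEC and 25.9 ± 6.99 in bmEC, and 24.4 ± 1.24 in Lats2 control and 3.499 ± 0.159 in Lats2 cKO. Osteoblast markers, here a sign of metaphyseal bone cells, summed to 107 to 517 FPKM in mpEC and 40.2 to 50.5 in bmEC, and their part in the regional differences was not tested.

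**Figure D5:**
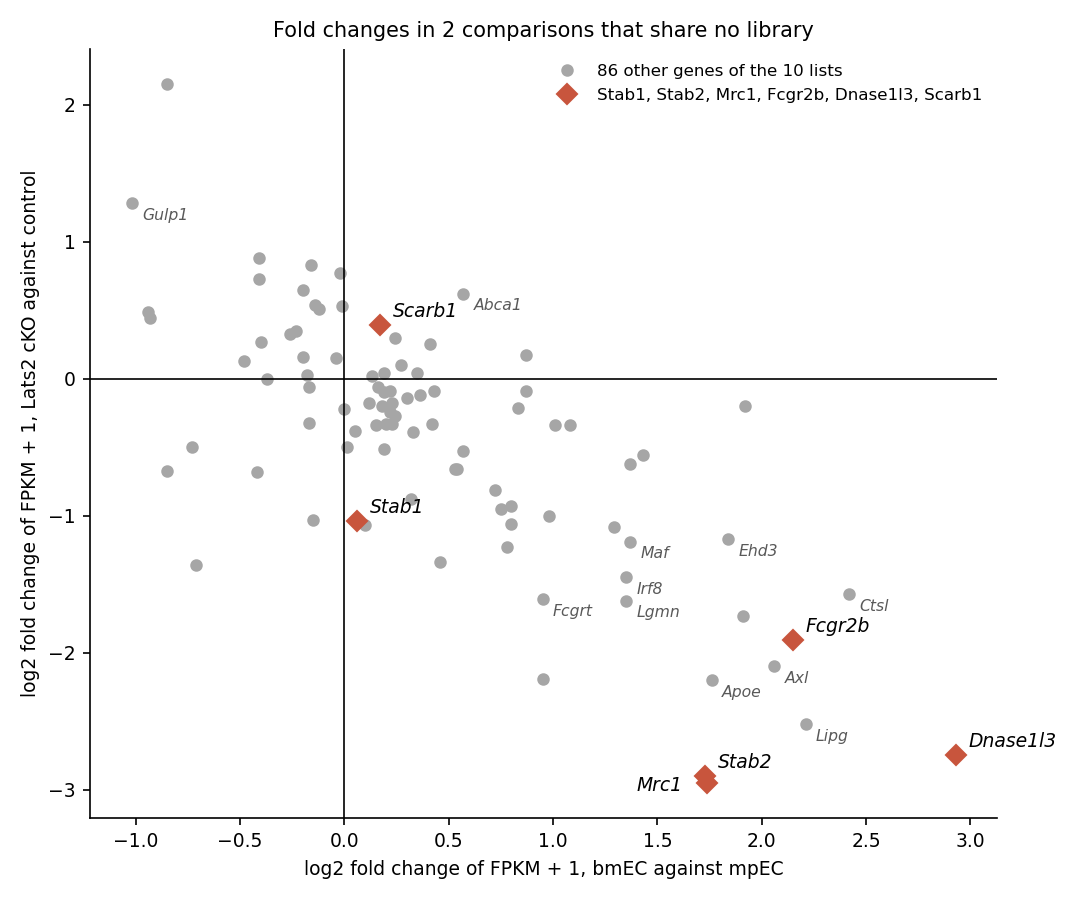
Log2 fold change of FPKM + 1 in bmEC against mpEC (horizontal) and in Lats2 cKO against control (vertical) for 6 members (diamonds) and 86 other genes of the lists tested in both (circles), with some named. Stab2, Mrc1, Fcgr2b and Dnase1l3 lie at the lower right, and Stab1 lies at 0.06 and -1.04. Of the 86 other genes, 50 are positive in the first and negative in the second, and 19 are the reverse. The share over all genes was not computed, so these counts are a description only.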

How the data were processed

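The authors sorted bone endothelial cells, made libraries with a stranded total RNA kit, aligned the read pairs with TopHat (GRCm38) and counted them per gene with HTSeq 0.6.1. They deposited FPKM values, but how counts became FPKM and whether counting used strand are not given in the sources used here. With the strand unknown, 1.1% of Stab1, 1.6% of Stab2 and 2.7% of Fcgr2b exon bases, which overlap a gene on the other strand, could draw reads from it. Samples were grouped by their labels.

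For each comparison, genes averaging 1 FPKM or more over its libraries entered a test on log2(FPKM + 1) with limma 3.58.1 (R 4.3.3), with a group term, moderated variances that follow the mean (trend) and two-sided p-values adjusted by Benjamini-Hochberg over all genes tested. A call is an adjusted p-value under 0.05. A fold change on this scale understates that of low genes. Tables normalised separately were never tested together. The fits were tested on simulated data. Reads were estimated from FPKM, GENCODE M21 exon lengths and the value of 1 read in each library. Of values up to 20 reads, 62.8% to 70.3% came out whole to within 0.02, so these reads served only for depth, for Lyve1 and for a limma-voom fit, an alternative chosen after seeing the data. Lists and markers were taken by symbol, with Adgre1, Cemip and Tmem2 found under another symbol in some tables. Named list genes are up to 3 per list and comparison with the largest change among those called at a mean of at least 5 FPKM. The genes followed and the lists were chosen with earlier results of these data known, and support nothing by their choice. Results for some genes that these rules name are not reported here.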

Additional observations from a re-analysis of the deposited data

How the results depend on the processing

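The 4 calls in bmEC against mpEC were made at every setting run, and no library decided them. For the libraries labelled Yap1/Taz ECKO the count of 1 member became 0 by limma without a filter on low genes, relative to endothelial genes, without the mean-variance trend, with a replicate block and at an adjusted p-value under 0.01 with an absolute log2 fold change over 0.5. In that order, 6, 1, 5, 4 and 5 members had an unadjusted p-value under 0.05. So did 2338, 5442, 1969, 1671 and 2023 of all genes, of 16044 tested without the filter and 11320 in the other settings. Leaving out a library gave 0 to 1 members called, with 0 without control 2 or 3 or mutant 2 or 3. limma-voom called 1. For Lats2 cKO the count of 5 became 3 at the stricter threshold (Dnase1l3, Fcgr2b and Mrc1) and 4 without the trend. At a filter of 5 FPKM it was 4, because Fcgr2b fell under that filter and was not tested. Without any filter on low genes it was 5 with Lyve1 in and Stab1 out. Leaving out a Lats2 library leaves 1 in its group, and the log2 fold changes of the 5 then ranged from -3.44 (Mrc1) to -0.78 (Stab1). Over the members' fold changes, 228 alternative values kept direction and side of the threshold, 21 lost the call and 7 reversed. The reversals were of values near 0, namely Stab1 in bmEC at -0.13 by limma-voom, -0.035 without mpEC library 1 and -0.041 without bmEC library 3 (range over left-out libraries -0.041 to 0.17), and the 4 in Yap1/Taz relative to endothelial genes, at -0.11 (Mrc1), -0.019 (Fcgr2b), -0.014 (Scarb1) and -0.0005 (Stab2). Of the targeted genes, Yap1 reversed in bmEC to 0.074 with quantile normalization, 0.15 relative to endothelial genes and 0.047, 0.018 and 0.038 without mpEC library 2 or 3 or bmEC library 2 (range -0.091 to 0.047), and in Yap1/Taz to 0.077 and 0.0098 without control library 2 or mutant library 3 (range -0.14 to 0.077). Lats2 reversed in bmEC to -0.17 by limma-voom, -0.033 without mpEC library 1 and -0.056 without bmEC library 1 (range -0.056 to 0.091). The call of Wwtr1 in Yap1/Taz was lost without the filter, without the trend and without control library 2 or 3 or mutant library 2 or 3. The cause was not tested.

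Centring on endothelial genes moved the median of all genes by 0.16, -0.32 and -0.26 in the region, Yap1/Taz and Lats2 comparisons, and limma-voom by -0.20, -0.05 and -0.14. All genes called higher and lower were 1481 and 1201 in bmEC (1774 and 562 centred, 890 and 2413 by limma-voom, 744 and 591 at the stricter threshold), 1468 and 1243 in Lats2 cKO (871 and 2241 centred, 1268 and 2039 by limma-voom, 720 and 669 without the filter, 106 and 151 at the stricter threshold, 474 and 457 without Lats2 cKO library 2) and 100 and 48 in Yap1/Taz (78 and 3303 centred, 205 and 152 by limma-voom, 10 and 7 without the trend, 0 and 1 without the filter, at the stricter threshold or without mutant library 2 or 3, 11 and 9 without control library 2, 8 and 6 without control library 3, 215 and 78 without mutant library 1). Deviations of same-numbered libraries had correlations of 0.31, 0.09 and 0.10 between regions, -0.18, -0.12 and -0.16 in Yap1/Taz and 0.07 in Lats2. Differently numbered libraries had -0.21 to 0.12 between regions and -0.15 to 0.24 in Yap1/Taz. In Lats2 they had -0.07, which the 0.07 fixes, because 2 libraries deviate from their own mean by opposite amounts. The Lats2 values therefore cannot tell whether libraries were paired. The main test did not take the numbers as pairs, and whether the region libraries were paired is not known. With the replicate block, 4, 0 and 5 members were called in the region, Yap1/Taz and Lats2 comparisons, with Stab1 in Yap1/Taz at an adjusted p-value of 0.0825. The block called 29 genes higher and 16 lower in Yap1/Taz, and 1597 higher and 1475 lower in bmEC. In bmEC against mpEC the block changed the SE from 0.376 to 0.131 for Fcgr2b and from 0.229 to 0.079 for Dnase1l3. At the depths here, a gene such as Lyve1 with 0 to 18 reads a library can show only large differences.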
